A study of Mus musculus with 30 samples.

Results

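The comparison asked where the transcriptional response to 1 h of cycloheximide differed between a fibroblast line and an embryonic stem cell line. Of the 30 RNA-seq libraries of the series, the 12 taken at 0 h and 1 h carry it: 3 replicates, lettered A to C, of each line at each time. NIH/3T3, a mouse fibroblast line, was kept in DMEM with 10% serum. CGR8, a mouse embryonic stem cell line, grew in 2i and LIF in N2B27. Both lines carried the ROSA26 SLT knock-in, and the labels give cycloheximide at 0.1 µg/mL for all groups, the 0 h controls included. Line and culture medium changed together, so their parts in a difference cannot be told apart. The labels do not say whether replicates were separate cultures, so the p-values measure the spread between these libraries, which may be technical. The line difference of a gene is its log2 fold change from 0 h to 1 h in CGR8 minus that in NIH/3T3, so that a positive value means a larger rise or a smaller fall in CGR8. It was tested for 17549 genes, and a gene was called where its p-value, adjusted over all of them by the Benjamini-Hochberg method, was under 0.05 in edgeR's quasi-likelihood test. Levels are in CPM, a gene's count scaled by its library's total and by the TMM factor of the fit. They are relative to the RNA of the whole library, so that a change in RNA per cell, or in how many cells of a kind were present, cannot be told apart from a change in 1 transcript.

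Cycloheximide stops elongating ribosomes. Immediate-early genes are transcribed within minutes of a growth factor or serum signal from factors already present, so they need no new protein. Their transcripts are short-lived, and when translation stops they often build up, a response known as superinduction, since the repressors and decay factors that end the signal are themselves labile proteins. Many are driven by the RAS, RAF, MEK and ERK kinase cascade through ETS factors and serum response factor, and the cascade's phosphatases and Sprouty proteins are induced by it as feedback. Serum feeds this cascade in fibroblasts. The 2i medium holds 1 inhibitor of MEK and 1 of GSK3, and keeps stem cells in the naive state with low ERK output.

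The 12 libraries held 19.3 to 30.5 M counts (mega-counts). Markers separated the lines: 7 of 8 stem cell markers and 8 of 8 fibroblast markers had ranges that did not overlap between the lines. Klf4 was the stem cell marker that overlapped, and the fibroblast marker Thy1 was at or below 0.0673 CPM in NIH/3T3 and at 3.03 CPM or more in CGR8. Postn, another fibroblast marker, did not exceed 0.857 CPM in NIH/3T3. Markers of primed or differentiating cells summed to 233 to 270 CPM in CGR8, and 3 Zscan4 genes to 2.16 to 4.41 CPM. Most of the first sum was Dnmt3b, at 217 to 256 CPM, and the next highest in CGR8 was Otx2, at 6.33 to 9.21 CPM. Gata4 of the same list was higher in NIH/3T3. No marker that could be tested was called for the line difference. Each line held 1 library that stood apart. NIH/3T3 1 h replicate C differed from A and B with a chi-square per degree of freedom of 76.2 and 89.1, against 4.41 between A and B. CGR8 0 h replicate B gave 36.2 and 36.3, against 3.55 between A and C. Some of the counts below are therefore also given without both.

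The line difference was called for 28 genes, 0.160% of those tested, and was nearly one-sided in this fit. In 25 genes (0.142%) the change was more negative in CGR8, and in 3 (0.0171%) it was more positive. Of the 10342 genes expressed in both lines (1 CPM or more in each, as a mean of 6 libraries), 26 (0.251%) were called. Among them were immediate-early genes such as Egr1 and Ier2, the ERK feedback genes Dusp1, Dusp6 and Spry4, and the secreted ligand genes Edn1 and Ccn1. Without both libraries that stood apart 33 genes were called, 31 of them expressed in both lines and 2 more positive in CGR8, and 24 of the 28 remained. With the 12 libraries fitted alone 15 were called, all among the 28, and Ccn1, Nr1d1, Irf2bp2, Csrnp1, Lpar6 and Hoxa3 were among those lost. An unadjusted p under 0.05 was reached by 710 genes. How one-sided the calls were depended on the setting. The change was more negative in CGR8 in 170 of 259 called genes with voom and in 29 of 44 with no filter. In the other alternatives 83.3% to 93.9% of the called genes were more negative. Edn1, Dusp1, Nr1d1, Irf2bp2, Csrnp1, Lpar6 and Kbtbd2, and of the genes shared by both lines Txnip, Jun, Pik3r2, Junb and Ccn2, each overlap exons of 1 gene on the opposite strand, whose reads may be mixed with theirs if strand was not used in counting.

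The 26 genes came to the difference by several routes. In 16, NIH/3T3 rose and the change in CGR8 was not called. In 6, CGR8 fell and the change in NIH/3T3 was not called. Egr1 and Klf10 rose in both lines, Lpar6 rose in CGR8 and was not called in NIH/3T3, and Nr1d1 was called in neither. None of the 26 was called in opposite directions in this fit. Other settings gave such genes, called for the difference, higher in NIH/3T3 and lower in CGR8: 16 of 176 with voom, 3 of 41 with DESeq2, 2 of 42 with no filter, 2 of 26 at a mean of at least 5 CPM in each line and 1 of 15 with the 12 libraries alone. Leaving out NIH/3T3 1 h replicate C gave 3 of 36, and leaving out both libraries that stood apart gave 2 of 31. Within the lines, 67 genes rose (0.382%) and 10 fell (0.0570%) in NIH/3T3 at 1 h, and 57 rose (0.325%) and 47 fell (0.268%) in CGR8. These counts moved with single libraries. The NIH/3T3 total of 77 became 119 without 1 h replicate C, 48 without 0 h replicate A, 46 without 0 h replicate C and 135 without both libraries that stood apart. The CGR8 total of 104 lay between 38 and 67 when any 1 of its 6 libraries was left out, and at 68 without both. With libraries scaled by their totals alone, the CGR8 calls split into 68 higher and 32 lower.

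**Figure D1:**
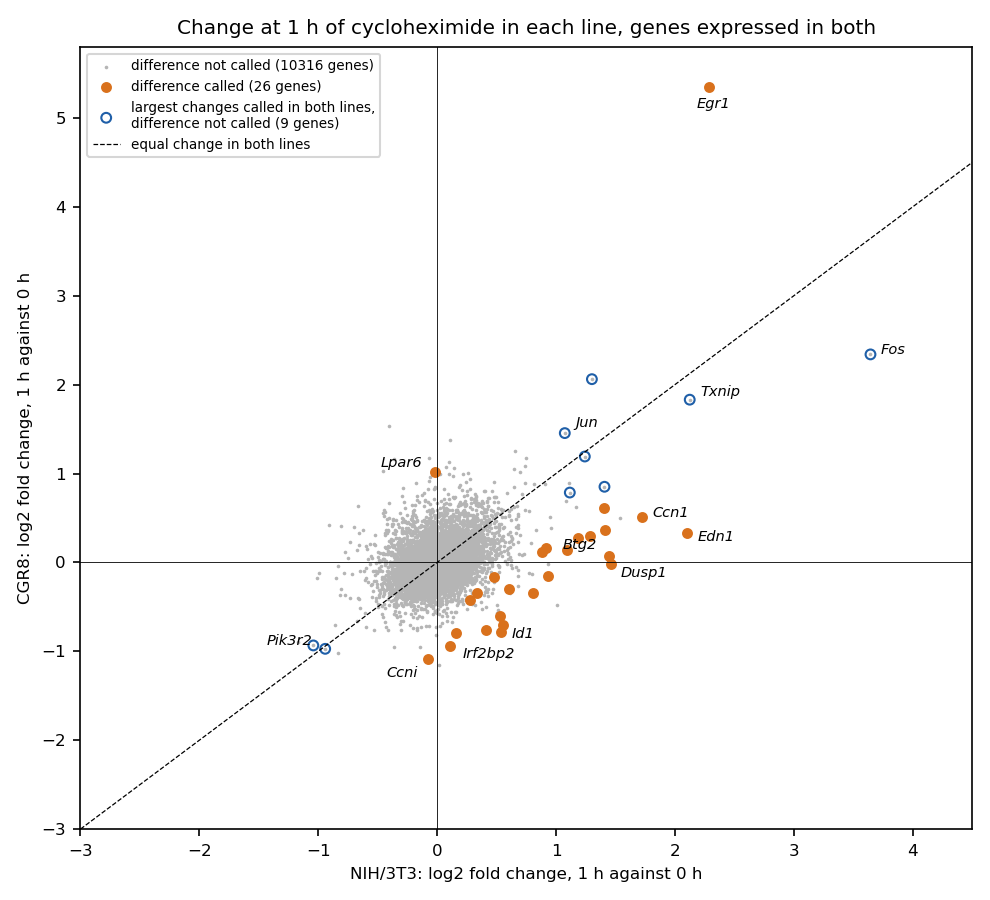
Log2 fold change at 1 h against 0 h in NIH/3T3 (x axis) and in CGR8 (y axis), 1 point per gene expressed in both lines, with the 26 genes called for the difference in orange and 9 genes called in both lines and not for the difference ringed in blue. Egr1 and Lpar6 lie above the dashed line of equal change, and the other 24 orange points lie below it.

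Among genes expressed in both lines, Egr1 had the largest called difference in the direction of CGR8. It encodes a zinc-finger factor that is the textbook immediate-early target of ERK and serum response factor. In NIH/3T3 it stood at 126, 109 and 121 CPM at 0 h and at 591, 759 and 393 CPM at 1 h. In CGR8 it was at 1.10, 0.999 and 1.19 CPM at 0 h and at 48.8, 43.9 and 41.7 CPM at 1 h. The groups did not overlap in either line, and every CGR8 library at 1 h was still below every untreated NIH/3T3 library. The log2 fold change was 2.29 (SE 0.16) in NIH/3T3 and 5.34 (SE 0.22) in CGR8. The difference of 3.06 (SE 0.27) had an adjusted p of 1.54e-07. Its sign depends on the scale: the gain was 462 CPM (SE 106) in NIH/3T3 and 43.7 CPM (SE 2.09) in CGR8, a difference of -418 CPM (SE 106). Among the 26 genes, Egr1 is the exception in this, since in the other 25 the linear and the log2 difference had the same sign.

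Lpar6 and Hoxa3 were the other genes with a more positive change in CGR8. Lpar6, a receptor for lysophosphatidic acid, was at 4.70, 3.88 and 4.09 CPM in CGR8 at 0 h and at 9.06, 8.47 and 8.30 CPM at 1 h. In NIH/3T3 the libraries overlapped, with 10.9 to 12.5 CPM in controls and 10.0 to 13.4 CPM after cycloheximide. The CGR8 libraries approached the NIH/3T3 level at 1 h without reaching it. The difference was 1.04 (SE 0.20, adjusted p = 0.010). Its call was lost without NIH/3T3 0 h replicate A (adjusted p = 0.0551), CGR8 0 h replicate B (0.0570) or CGR8 1 h replicate A (0.0595), and without both libraries that stood apart (0.117). Hoxa3, a homeobox gene, was expressed in NIH/3T3 (2.76 to 4.60 CPM in its 6 libraries) and near 0 in CGR8. The CGR8 counts were 0, 2 and 1 at 0 h and 13, 11 and 12 at 1 h, a ratio of 13.95 with a 95% counting interval of 4.41 to 70.8. Its difference was 3.71 (SE 0.54, adjusted p = 0.000362), on 36 counts in all at 1 h. Exons of 5 other annotated genes overlap Hoxa3, 1 of them on its own strand, and which strand was counted is not given in the sources used here.

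Among genes expressed in both lines, Edn1 had the largest called difference in the other direction, and the secreted gene Ccn1 was called too. Edn1 encodes endothelin 1, a vasoactive and mitogenic peptide. It stood at 2.91, 3.39 and 3.37 CPM in untreated NIH/3T3 and at 13.0, 18.1 and 10.6 CPM at 1 h. In CGR8 it was at 3.88, 3.80 and 4.26 CPM and then at 4.70, 5.40 and 4.92 CPM. At 0 h the NIH/3T3 libraries lay just below those of CGR8, and at 1 h all 3 lay above them. Edn1 rose by a log2 of 2.11 (SE 0.15) in NIH/3T3, against 0.33 (SE 0.15, adjusted p = 0.459) in CGR8, and the difference was -1.77 (SE 0.21, adjusted p = 1.76e-05). Ccn1, a matrix-associated ligand of integrins, was at 179, 161 and 203 CPM in NIH/3T3 and then at 619, 774 and 397 CPM. In CGR8 it moved from 12.5, 15.8 and 13.5 CPM to 21.4, 19.2 and 19.1 CPM, also without overlap. Its difference was -1.21 (SE 0.22, adjusted p = 0.00858). The CGR8 change of 0.52 was called (adjusted p = 0.0417) once NIH/3T3 1 h replicate C was left out.

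Dusp1 and Dusp6, genes of MAP kinase phosphatases, rose in NIH/3T3 and were not called in CGR8. Their relatives Dusp4, Dusp5, Dusp7, Dusp10 and Dusp14 were called in neither line, with NIH/3T3 changes of -0.36 (Dusp7) to 0.37 (Dusp10). Dusp1, which dephosphorylates ERK, JNK and p38, was at 30.1, 31.5 and 32.3 CPM in NIH/3T3 at 0 h and at 88.8, 90.2 and 79.2 CPM at 1 h. In CGR8 it was at 21.6, 23.7 and 20.5 CPM and then at 23.5, 23.3 and 18.2 CPM. The NIH/3T3 groups were far apart and the CGR8 groups overlapped. The log2 fold changes were 1.46 (SE 0.13) and -0.02 (SE 0.14), and the difference was -1.48 (SE 0.19, adjusted p = 7.55e-05). Dusp6, which acts on ERK, went from 125, 133 and 125 CPM to 275, 305 and 237 CPM in NIH/3T3. In CGR8 its libraries ran from 50.03 to 60.8 CPM over both times. The difference was -0.96 (SE 0.12, adjusted p = 7.55e-05). Spry4, a Sprouty inhibitor of receptor tyrosine kinase signalling, differed by another route. It fell in CGR8 from 102, 118 and 103 CPM to 65.0, 61.0 and 64.6 CPM, while the NIH/3T3 groups overlapped, at 19.0, 19.9 and 17.4 CPM and then at 26.6, 29.0 and 19.3 CPM. Its difference was -1.17 (SE 0.20, adjusted p = 0.00361). The fall in CGR8 lost its call without CGR8 1 h replicate B (adjusted p = 0.0517).

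Btg2 and Btg1 were the called members of the mRNA decay list, and both rose in NIH/3T3. Btg2 recruits deadenylase to mRNAs and restrains proliferation. It stood at 23.2, 26.2 and 29.5 CPM in NIH/3T3 and rose to 71.5, 81.9 and 61.5 CPM. In CGR8 the values were 19.7, 16.6 and 19.0 CPM at 0 h and 19.0, 18.8 and 20.6 CPM at 1 h, with overlap. The difference was -1.37 (SE 0.16, adjusted p = 1.76e-05). Its relative Btg1 gave 150, 140 and 146 CPM and then 189, 186 and 174 CPM in NIH/3T3. In CGR8 it gave 21.6, 20.7 and 23.7 CPM and then 17.6, 17.7 and 16.8 CPM. The libraries of Btg1 moved apart in opposite directions in the lines, and the difference was -0.67 (SE 0.11, adjusted p = 0.0029). The rise of Btg1 in NIH/3T3 (log2 0.33, adjusted p = 0.0483) lost its call when any library except NIH/3T3 1 h replicate C was left out, with adjusted p-values of 0.0596 to 0.227. The CGR8 change (-0.34, adjusted p = 0.0511) was called without NIH/3T3 1 h replicate C (adjusted p = 0.0352).

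Myc and the serum-inducible kinase gene Plk2 rose in NIH/3T3 and had small negative changes in CGR8. Myc encodes the growth factor-responsive transcription factor. Its NIH/3T3 levels were 268, 245 and 291 CPM at 0 h and 480, 522 and 402 CPM at 1 h. In CGR8 it went from 61.5, 63.8 and 62.8 CPM to 49.3, 50.04 and 49.4 CPM. Neither pair of groups overlapped, but the CGR8 change of -0.34 (SE 0.12) had an adjusted p of 0.290. The difference was -1.15 (SE 0.17, adjusted p = 0.000362). Plk2 moved from 305, 290 and 321 CPM to 620, 648 and 482 CPM in NIH/3T3, and from 20.5, 19.9 and 20.7 CPM to 18.6, 16.8 and 19.4 CPM in CGR8. Its difference was -1.09 (SE 0.15, adjusted p = 0.000199).

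**Figure D2:**
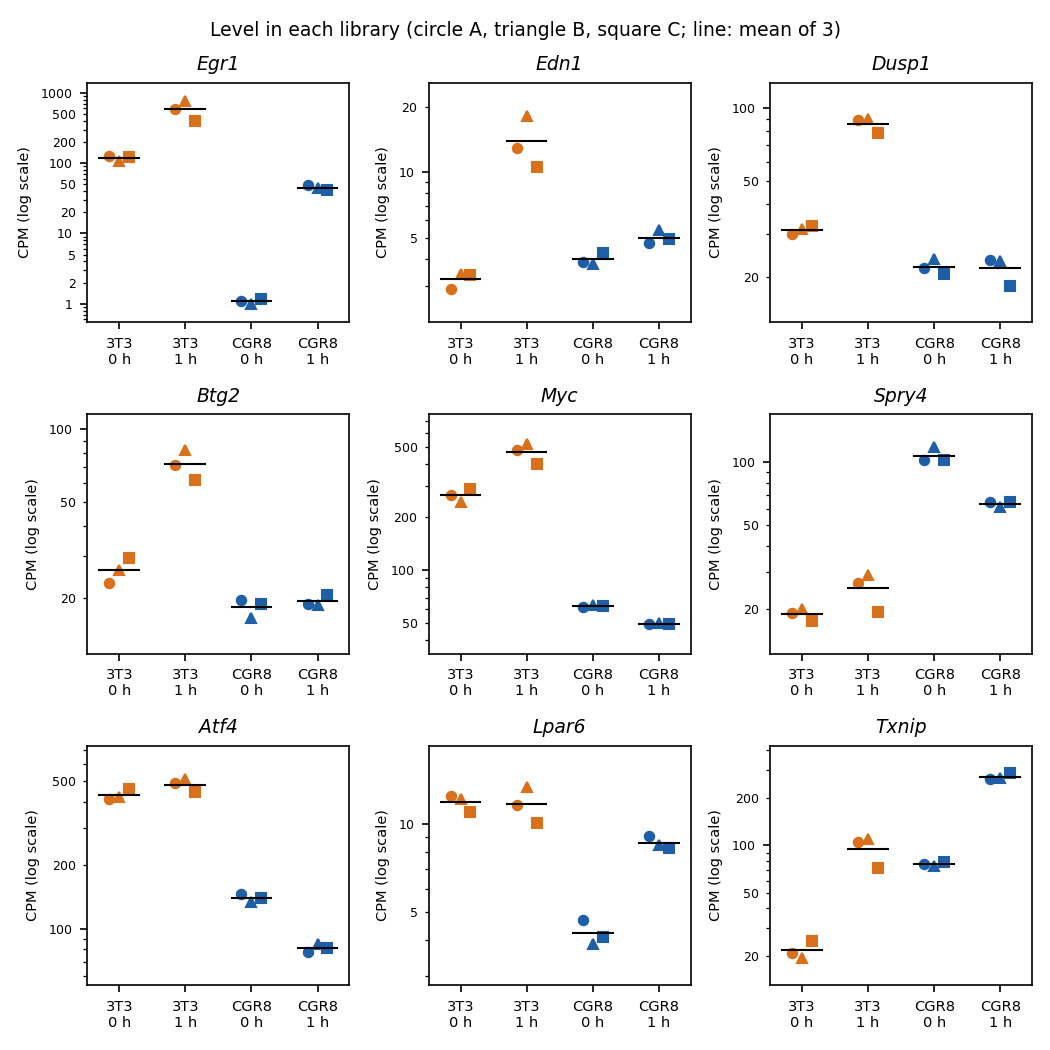
Level of 9 genes in each of the 12 libraries, in CPM on a log axis, with NIH/3T3 in orange, CGR8 in blue, replicates A, B and C as circle, triangle and square, and the mean of 3 as a line. Egr1 climbs in both lines, Edn1, Dusp1, Btg2 and Myc climb in NIH/3T3, Spry4 and Atf4 drop in CGR8, Lpar6 climbs in CGR8, and Txnip climbs in both.

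The 16 genes that rose in NIH/3T3 and were not called in CGR8 include further immediate-early genes. Over the 16, the log2 fold change ran from 0.33 to 2.11 in NIH/3T3 and from -0.70 to 0.52 in CGR8. The NIH/3T3 groups did not overlap in any of the 16, against 12.2% of all genes tested. That count adds no support, since the 16 were picked by a called rise in the same libraries. The CGR8 groups did not overlap in 12 of them, 6 higher and 6 lower, against 23.3% of all genes tested. The CGR8 libraries entered the called difference by which the 16 were picked, so this count adds no support either. Ier2 and Ier5 are a family of short-lived nuclear proteins. Ier2 went from 60.9, 51.5 and 63.1 CPM to 133, 151 and 145 CPM in NIH/3T3 and from 188, 186 and 169 CPM to 213, 225 and 228 CPM in CGR8, with a difference of -0.99 (SE 0.17, adjusted p = 0.0034). Ier5 went from 135, 149 and 153 CPM to 225, 217 and 202 CPM in NIH/3T3. In CGR8 it was near 1 CPM throughout (0.824 to 1.76 CPM), and its difference was -1.26 (SE 0.20, adjusted p = 0.0021). Klf6, a Kruppel-like zinc-finger factor, had log2 fold changes of 1.18 (SE 0.10) in NIH/3T3 and 0.27 (SE 0.10) in CGR8, and a difference of -0.91 (SE 0.14, adjusted p = 0.00134). Its relative Klf10, a target of TGF-beta signalling, rose in both lines, by 1.41 (SE 0.12) and 0.61 (SE 0.12). The Klf10 difference of -0.80 (adjusted p = 0.0401) kept its call without NIH/3T3 1 h replicate C or CGR8 1 h replicate C, and lost it without any 1 of the other 10 libraries (adjusted p of 0.0715 to 0.249). The rise of Klf10 in CGR8 lost its call without CGR8 0 h replicate A (0.0669), 0 h replicate C (0.0603) or 1 h replicate C (0.0989).

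Cytoskeletal and transcriptional regulators completed this group. Rnd3, whose product opposes stress fibres, went from 78.6, 78.6 and 75.02 CPM to 142, 147 and 151 CPM in NIH/3T3. In CGR8 it overlapped, at 21.2 to 23.4 CPM and then at 22.8 to 25.4 CPM. The difference was -0.76 (SE 0.11, adjusted p = 0.000362). Csrnp1, a nuclear protein gene, had a difference of -1.04 (SE 0.18, adjusted p = 0.0029) with a log2 fold change of 1.41 in NIH/3T3 and 0.37 in CGR8. Cited2, a partner of CBP and p300, changed by 0.88 and 0.11, with a difference of -0.76 (SE 0.14, adjusted p = 0.00858) that lost its call without NIH/3T3 0 h replicate B (adjusted p = 0.0510). Sertad1, a transcriptional coregulator, changed by 0.60 and -0.30. Its difference of -0.90 (adjusted p = 0.033) kept its call without NIH/3T3 1 h replicate A, CGR8 0 h replicate C or CGR8 1 h replicate C, and lost it without any 1 of the other 9 libraries (0.0510 to 0.175). The rise of Sertad1 in NIH/3T3 lost its call without NIH/3T3 0 h replicate A (0.191), 0 h replicate C (0.0880), 1 h replicate B (0.0836) or 1 h replicate C (0.0806). Without both libraries that stood apart, neither the Sertad1 difference (0.313) nor its rise in NIH/3T3 (0.0539) was called. Kbtbd2 fell outside the limit of 25 named genes and was named after its values were seen. It changed by 0.48 and -0.16, and its difference of -0.64 (adjusted p = 0.0418) held without NIH/3T3 0 h replicate B and was lost without any 1 of the other 11 libraries (0.0520 to 0.250). Its rise in NIH/3T3 lost its call without NIH/3T3 0 h replicate C (0.198) or 1 h replicate B (0.0705).

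**Figure D3:**
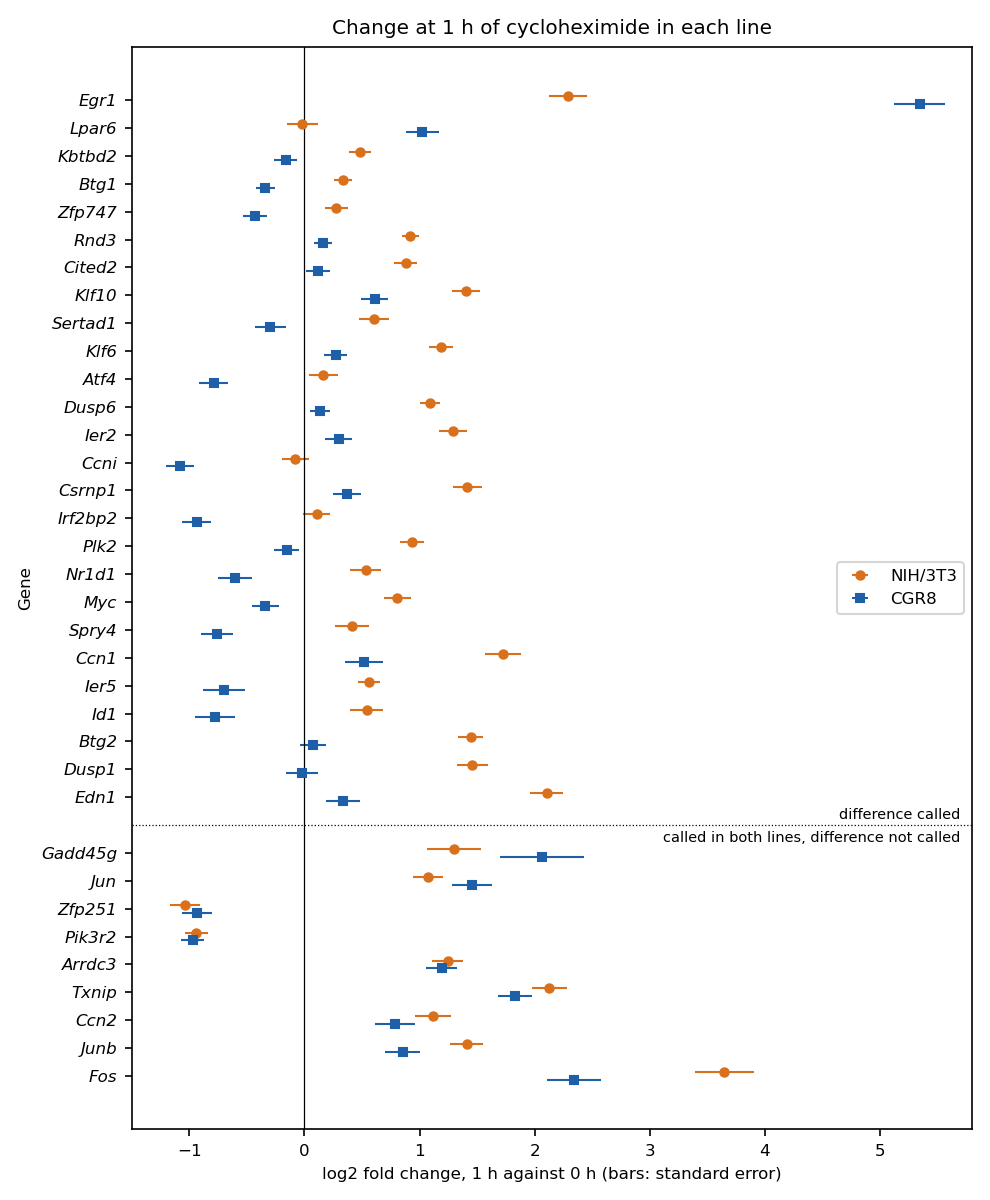
Log2 fold change at 1 h against 0 h of 35 genes expressed in both lines, NIH/3T3 as orange circles and CGR8 as blue squares, with bars of 1 standard error on each side. Above the dotted line, the 26 genes called for the difference have separated symbols, and below it 9 genes called in both lines have symbols on the same side of 0.

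Promoter sequence was read for the called genes because several of these genes are classical targets of cAMP response and serum response elements. RefSeq promoters (GRCm38.p6, 250 bases before to 50 bases after each start) were found for 21 of the 28 called genes. None was found for Egr1, Id1, Spry4, Myc, Ier2, Klf10 or Gm20056, so these were not searched for any motif. The full cAMP response element TGACGTCA, which reads the same on both strands, was in the window of 3 of the 21 genes, Dusp1, Btg2 and Plk2, and in that of 2.03% of all genes. The CArG box, the serum response factor motif, was in that of 1 (Rnd3), against 1.81% of all genes. On either strand the AP-1 motif TGANTCA was in the window of 1 gene against 8.97% of all, and the EGR motif GCGTGGGCG in 0 against 0.71%. The STAT motif TTCNNNGAA was in 1 against 9.55%, and the GC box GGGCGG in 14 of the 21 against 38.2% of all genes. All genes here are the 27025 with a RefSeq promoter, whether expressed in these lines or not. No share over the expressed genes alone was computed, so these shares are not matched to the called genes. The 250 bases before the start of the 4 called genes with either of the first motifs are printed in lower case, with that motif in capitals. It begins 143 bases before the start in Dusp1, 166 in Btg2, 62 in Plk2 and 100 in Rnd3. None of the motifs searched overlapped it there.
Dusp1 promoter, chr17:26508473-26508722, minus strand: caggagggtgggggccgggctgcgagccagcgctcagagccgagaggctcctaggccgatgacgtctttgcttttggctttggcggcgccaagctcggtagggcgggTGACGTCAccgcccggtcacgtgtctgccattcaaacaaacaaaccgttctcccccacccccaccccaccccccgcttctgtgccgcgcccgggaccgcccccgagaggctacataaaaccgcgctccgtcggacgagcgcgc
Btg2 promoter, chr1:134079156-134079405, minus strand: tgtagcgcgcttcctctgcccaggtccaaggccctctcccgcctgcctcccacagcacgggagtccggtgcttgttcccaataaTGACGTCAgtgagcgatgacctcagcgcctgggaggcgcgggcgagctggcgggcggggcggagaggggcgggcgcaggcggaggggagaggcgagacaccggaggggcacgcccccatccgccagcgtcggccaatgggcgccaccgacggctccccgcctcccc
Plk2 promoter, chr13:110394794-110395043, plus strand: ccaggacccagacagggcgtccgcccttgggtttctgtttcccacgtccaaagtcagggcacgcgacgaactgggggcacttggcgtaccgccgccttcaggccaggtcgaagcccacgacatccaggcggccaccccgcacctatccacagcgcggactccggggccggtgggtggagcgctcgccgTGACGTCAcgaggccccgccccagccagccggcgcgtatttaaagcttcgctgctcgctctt
Rnd3 promoter, chr2:51149112-51149361, minus strand: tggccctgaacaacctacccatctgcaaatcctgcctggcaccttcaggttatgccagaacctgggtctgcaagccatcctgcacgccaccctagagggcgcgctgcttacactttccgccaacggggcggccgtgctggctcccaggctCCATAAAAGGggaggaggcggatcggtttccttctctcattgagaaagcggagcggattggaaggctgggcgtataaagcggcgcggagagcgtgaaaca
All 4 genes were higher in NIH/3T3 at 1 h and not called in CGR8. That pattern was held by 16 of the 26 called genes expressed in both lines, these 4 among them. It is therefore not particular to genes with these motifs. Named genes called in both lines and not for the difference were searched too. Of these, Egr2, higher in both lines, had a CArG box before several of its RefSeq starts and is not printed. The matches are letters in a window and show neither binding nor its absence in other genes.

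In 6 genes CGR8 fell and the NIH/3T3 change was not called. In all 6 the CGR8 groups did not overlap, against 23.3% of all genes tested. The 6 were picked by their CGR8 call in the same libraries, so that count adds no support. Their log2 fold changes were -1.08 to -0.43 in CGR8 and -0.08 to 0.54 in NIH/3T3. Ccni, which encodes cyclin I, went from 87.9, 101 and 81.6 CPM to 44.0, 45.1 and 38.5 CPM in CGR8. In NIH/3T3 it overlapped, at 125 to 134 CPM and then at 117 to 134 CPM. The difference was -1.003 (SE 0.17, adjusted p = 0.00226). Atf4, the transcription factor of the integrated stress response, went from 147, 135 and 141 CPM to 77.6, 84.6 and 81.6 CPM in CGR8. Its NIH/3T3 libraries overlapped, at 413, 419 and 459 CPM and then at 489, 513 and 443 CPM, and its difference was -0.95 (SE 0.18, adjusted p = 0.00878). Irf2bp2, a transcriptional corepressor gene, went from 23.6, 24.3 and 21.1 CPM to 12.9, 12.1 and 11.1 CPM in CGR8 and overlapped in NIH/3T3 (45.3 to 62.9 CPM). The Irf2bp2 difference was -1.04 (SE 0.17, adjusted p = 0.0021).

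Id1 and Zfp747 belong to the same group with less firm calls. Id1, a helix-loop-helix inhibitor induced by BMP and SMAD signalling, stood at 90.5, 107 and 110 CPM in NIH/3T3 and then at 156, 142 and 149 CPM, without overlap. In CGR8 it went from 6.81, 7.99 and 6.18 CPM to 4.36, 4.10 and 3.76 CPM. The 2 lines moved apart, with a difference of -1.32 (SE 0.23, adjusted p = 0.00309). The NIH/3T3 change of 0.54 had an adjusted p of 0.0965, and the fall in CGR8 lost its call without any 1 of 5 of its 6 libraries (all except 0 h replicate C), at adjusted p-values of 0.0806 to 0.222. The zinc-finger gene Zfp747 had a difference of -0.70 (SE 0.14, adjusted p = 0.0282). That call was lost without any of the NIH/3T3 0 h libraries, NIH/3T3 1 h replicate A or B, CGR8 0 h replicate B, or CGR8 1 h replicate A or B (0.0517 to 0.175). Its fall in CGR8 (adjusted p = 0.0485) lost its call without any 1 library except NIH/3T3 1 h replicate C (0.0555 to 0.417). Nr1d1, the circadian repressor REV-ERB alpha, was called in neither line, with changes of 0.53 (adjusted p = 0.0801) and -0.60 (adjusted p = 0.0543). Its libraries read 85.2, 70.5 and 85.9 CPM and then 135, 129 and 85.9 CPM in NIH/3T3, and 16.9, 18.4 and 13.8 CPM and then 12.1, 10.8 and 9.60 CPM in CGR8. The difference of Nr1d1 was -1.14 (SE 0.20, adjusted p = 0.00458). Without NIH/3T3 1 h replicate C both of its changes were called (0.70, adjusted p = 0.00133, and -0.60, adjusted p = 0.011), and without CGR8 0 h replicate C its CGR8 change was (0.0398).

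Against these, 21 genes were called in both lines, 15 higher and 6 lower in each, and in 19 of them the difference was not called. The 21 had the same direction in both lines without exception. Txnip, an alpha-arrestin that restrains glucose uptake, went from 21, 19.5 and 24.95 CPM to 105, 109 and 72.0 CPM in NIH/3T3. In CGR8 it went from 76.4, 73.8 and 78.2 CPM to 261, 267 and 286 CPM. Both pairs of groups were far apart, and the difference was -0.29 with a 95% interval of -0.71 to 0.13. Arrdc3, another alpha-arrestin, rose by 1.24 and 1.19, with a difference of -0.05 (interval -0.43 to 0.33). Pik3r2, a regulatory subunit of PI3 kinase, fell from 95.2, 84.5 and 102 CPM to 51.1, 48.3 and 47.4 CPM in NIH/3T3 and from 62.7, 63.5 and 62.0 CPM to 36.5, 30.8 and 28.8 CPM in CGR8. Its difference was -0.03 (interval -0.32 to 0.26). The zinc-finger gene Zfp251 fell by 1.04 and 0.93 on the log2 scale, with a difference of 0.11 (interval -0.27 to 0.48). Of the 4, Pik3r2 had the narrowest interval.

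The AP-1 genes Fos, Jun and Junb rose in both lines, with wider intervals. Fos was at 0.501, 0.643 and 0.673 CPM in untreated NIH/3T3 and at 7.52, 9.65 and 6.01 CPM at 1 h. In CGR8 it was at 1.35, 1.24 and 0.860 CPM and then at 5.96, 6.87 and 4.92 CPM. The difference for Fos was -1.30 with an interval of -2.04 to -0.57, not called after adjustment (adjusted p = 0.376). Jun rose by 1.07 (SE 0.13) in NIH/3T3, from a mean of 271 CPM, and by 1.46 (SE 0.18) in CGR8, from a mean of 1.85 CPM. The Jun difference was 0.38 (interval -0.06 to 0.83). Junb rose by 1.41 and 0.85, with a difference of -0.56 (interval -0.98 to -0.13, adjusted p = 1). Gadd45g, a growth arrest gene, rose by 1.302 and 2.06 (difference 0.76, interval -0.14 to 1.66). Ccn2, the relative of Ccn1, rose by 1.12 and 0.79 (difference -0.33, interval -0.81 to 0.15), and its CGR8 call was lost without any of the CGR8 0 h libraries or CGR8 1 h replicate A or B (adjusted p of 0.0748 to 0.131). Egr2 rose by 2.31 in NIH/3T3. In CGR8 it gave 0, 0 and 3 counts at 0 h and 8, 7 and 10 at 1 h, a ratio of 9.69 with a counting interval of 2.96 to 50.1, and its CGR8 call was lost without CGR8 0 h replicate A (0.144), 0 h replicate B (0.152), 1 h replicate A (0.0740) or 1 h replicate C (0.0992).

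Genes that rose in 1 line mostly leaned the same way in the other. Of the 58 genes expressed in both lines that rose in NIH/3T3, 47 had a positive change in CGR8, 14 were called higher there and 0 were called lower. Their median CGR8 change was 0.30, against -0.02 over all 10342 genes expressed in both. Of the 43 that rose in CGR8, 42 had a positive change in NIH/3T3, with a median of 0.36 against 0.00, and 14 were called higher. Of the 10 that fell in NIH/3T3 all had a negative change in CGR8, and 6 were called. Of the 40 that fell in CGR8, 32 had a negative change in NIH/3T3 and 6 were called. Over all 10342 genes expressed in both, 4630 had a positive and 5712 a negative change in CGR8, with 43 called higher and 40 lower. In NIH/3T3, 5195 were positive and 5147 negative, with 58 called higher and 10 lower. Without both libraries that stood apart, 97 genes expressed in both lines rose in NIH/3T3. Of these, 78 had a positive change in CGR8, 14 were called higher and 2 lower there, with a median of 0.15.

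The 26 genes were more often the fibroblast's genes by level. At 0 h 22 of them had a higher mean in NIH/3T3, and at 1 h 24 had. The median ratio of NIH/3T3 to CGR8 at 0 h was 2.63, against 1.03 over all genes expressed in both, of which 51.8% were higher in NIH/3T3. The 0 h libraries enter the fold changes too, so level and fold change are not independent here. Edn1, Spry4, Csrnp1 and Ier2 were the 4 with a higher 0 h mean in CGR8. On the linear scale Ccn1 gained 416 CPM (SE 110) in NIH/3T3 and 5.98 CPM (SE 1.22) in CGR8. Atf4 had changes of 51.5 CPM (SE 25.1) and -59.3 CPM (SE 4.001). Txnip, with no called difference in fold, gained 73.5 CPM (SE 11.9) in NIH/3T3 and 195 CPM (SE 7.54) in CGR8.

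The differences were also read by gene list, each given by its members expressed in both lines. Over all such genes the median difference was -0.02, 0.251% were called, 0.561% rose in NIH/3T3 and 0.416% rose in CGR8. The lists were drawn up with results of these data known and support nothing by themselves. Of 23 immediate-early genes other than the EGR and AP-1 families, 7 were called with a more negative change in CGR8 and 0 with a more positive one, and the median difference was -0.52. In that list 13 rose in NIH/3T3 and 3 in CGR8. Of 14 ERK feedback genes 3 were called (Dusp1, Dusp6 and Spry4), with a median of -0.25, and Spry2 had a difference of -0.60 that was not called (adjusted p = 0.109). Of 22 growth factor receptors and core ERK cascade members 0 were called. Their median of -0.06 was -0.14 without NIH/3T3 1 h replicate C and 0.04 without NIH/3T3 1 h replicate B. Of 10 secreted and surface genes 2 were called, Edn1 and Ccn1, with a median of -0.51. Without both libraries that stood apart the medians were -0.65 for the immediate-early, -0.40 for the ERK feedback and -0.80 for the secreted list. Of 15 mRNA decay regulators 2 were called, Btg1 and Btg2, while Zfp36 (-0.96, adjusted p = 0.154) and Tob2 (-0.72, adjusted p = 0.0717) were not. Within the lines, Zfp36 rose in NIH/3T3 (1.19, adjusted p = 2.07e-05), whereas Tob2 fell in CGR8 (-0.72, adjusted p = 0.000961). Among 9 AP-1 genes 0 were called. Egr1 was the called member of the 4 EGR, NR4A and NAB genes, and Nr4a1 had a difference of -0.38 (adjusted p = 1).

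Few members of the remaining lists were called. Myc was called of 9 MYC, MAX and MXD genes, and Id1 of 12 ID and SMAD genes. Ccni was called of 10 genes listed under cyclins and CDK inhibitors, and Btg2 and Plk2 of 17 p53 targets. Lists of LIF and STAT3 signalling (13 genes), alpha-arrestins (6), other Kruppel-like factors (9), NF-kB (11), Wnt (8), Notch (5), SRF and actin (11), YAP and TEAD (13), zinc-finger Zfp genes (17), PI3K (10) and the BCL2 family (9) had 0 called. Socs3, the STAT3 feedback inhibitor, rose in both lines, by 0.53 and 0.55, with a difference of 0.02 (interval -0.33 to 0.36). Of the 19 naive pluripotency factors 3 were expressed in both lines, and 0 of the 19 were called for the difference. Zfp296 (-1.03), Lefty2 (-0.99) and the growth factor gene Fgf4 (-0.56) fell in CGR8 at 1 h. The 11 snoRNA host genes, with 0 called, had the highest median of the lists, 0.60. Zfas1, the member with the largest difference, read 63.3, 63.7 and 13.5 CPM in NIH/3T3 at 1 h and 49.0, 11.9 and 49.3 CPM in CGR8 at 0 h. The median of the snoRNA host list was 0.37 without NIH/3T3 1 h replicate C, 0.32 without CGR8 0 h replicate B and 0.07 without both.

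**Figure D4:**
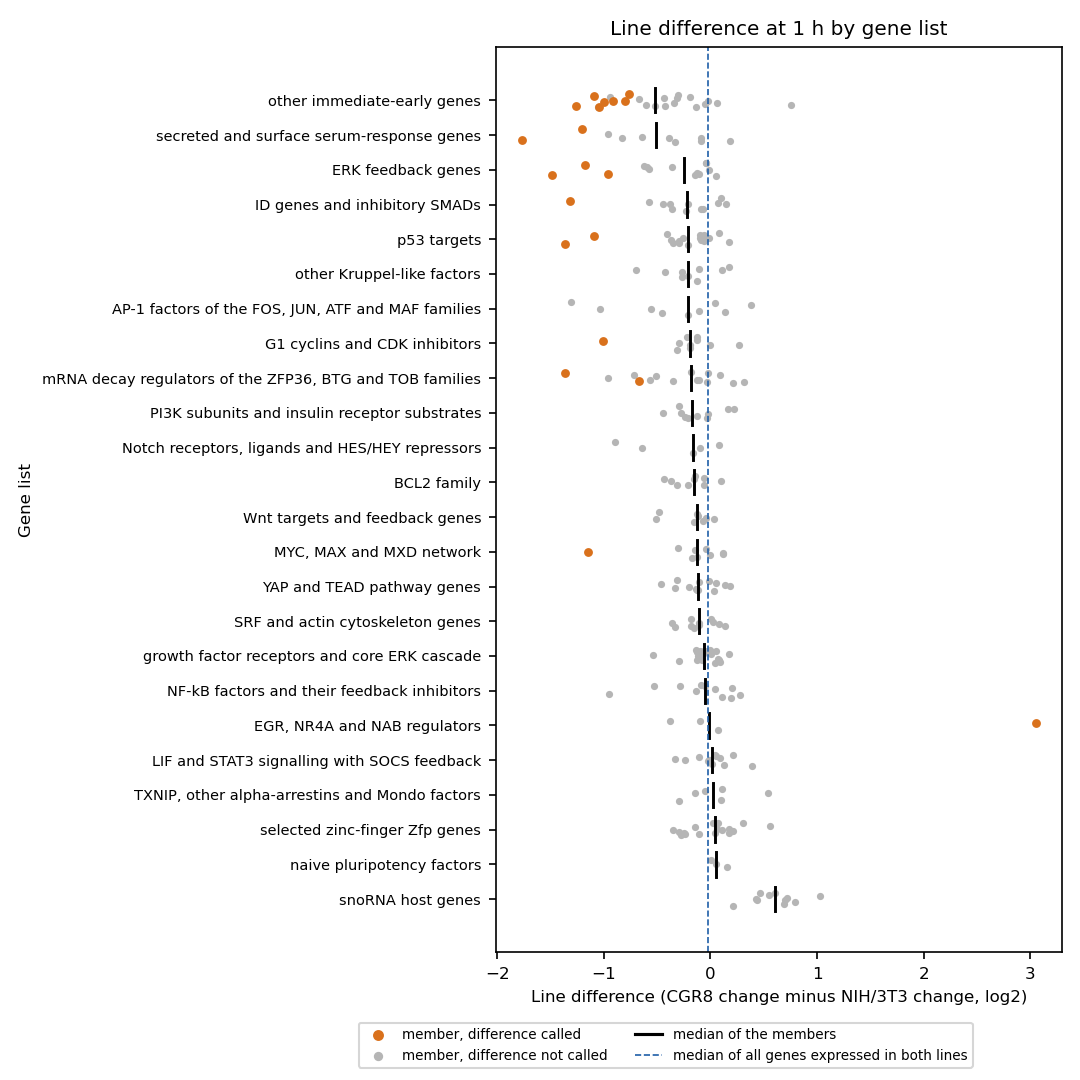
Line difference at 1 h (CGR8 change minus NIH/3T3 change, log2) of each list member expressed in both lines, with called members in orange, the list median as a black bar and the median of all such genes, -0.02, as a dashed line. Immediate-early, secreted and ERK feedback genes hold most orange points on the negative side, Egr1 lies alone at 3.06, and the snoRNA host genes sit to the right.

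Differences at 2 h, computed against the same 0 h libraries, are set beside those at 1 h for a few genes. Egr1 had 3.06 at 1 h and 1.92 at 2 h. Edn1 had -1.77 and -2.58, Btg2 -1.37 and -2.98, and Id1 -1.32 and -2.87. Lpar6 had 1.04 and 1.63, and Ccni -1.003 and -1.26. Junb, not called at 1 h (-0.56), had -3.54 at 2 h (adjusted p = 8.59e-12), with changes of 3.27 in NIH/3T3 and -0.27 in CGR8 at that time. Btg2 at 2 h had changes of 2.52 and -0.46. Txnip had -0.29 at 1 h and -0.64 at 2 h (adjusted p = 0.134). The 2 times share their controls, so these values are not separate evidence.

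Genes expressed in 1 line gave few calls. Of 1270 genes at 1 CPM or more in NIH/3T3 alone Hoxa3 was called, and 80 had an unadjusted p under 0.05. Of 2314 in CGR8 alone 0 were called, and 91 had an unadjusted p under 0.05. The differences were less precise there: the median standard error of the difference was 0.57 for genes of NIH/3T3 alone and 1.22 for those of CGR8 alone, against 0.19 for genes expressed in both. Of 3623 genes low in both lines 1 was called, the predicted gene Gm20056, named after its values were seen. Its level did not exceed 0.776 CPM in any of the 12 libraries.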

How the data were processed

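RNA was measured by stranded mRNA sequencing, per the labels' protocols. The authors deposited whole-number read counts per gene for 30 libraries, with 57186 gene identifiers, of which 90.7% had a symbol in GENCODE M21 once version suffixes were ignored. STAR, DESeq2 and the build GRCm39 are named in the submitters' processing notes. Their settings and the use of strand are not given in the sources used here. Counts of all 30 libraries (10 groups) were fitted in R 4.3.3 with edgeR 4.0.16, with TMM scaling, filterByExpr (minimum count 10, minimum total 15), 1 coefficient per group and no block. The line difference and the change within each line were contrasts of that fit, tested by the quasi-likelihood F test with Benjamini-Hochberg adjustment over 17549 genes at 0.05. CPM used library totals times TMM factors. The 12 libraries at 0 h and 1 h held 19.3 to 30.5 M counts (mega-counts), which makes genes of few counts the least precise. Intervals of count ratios are exact and cover counting error only.

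The genes named are those called for the difference with an official symbol (up to 25 expressed in both lines and 12 in 1 line), the 10 called in both lines with the largest smaller change, and up to 4 members of each of 24 lists. The members, lists and naming rule were chosen with earlier results of these data known. No 2 libraries of a group agreed within sampling noise. Alternatives were RLE or total scaling, DESeq2 1.42.0, limma 3.58.1 voom with sample quality weights, other filters, the 12 libraries alone, a replicate block and each library left out. Leaving out both libraries that stand apart was added after seeing the data. On simulated counts the test was checked to recover known changes. The simulation gave all genes the same spread and held no library that stood apart, so it is simpler than these data.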

Additional observations from a re-analysis of the deposited data

Results flagged for a closer look

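A test of the difference between the lines' changes, in edgeR's quasi-likelihood fit, passed its threshold for 28 genes, given here as the CGR8 change minus the NIH/3T3 change on the log2 scale. Positive values were found for Egr1 (3.06), Lpar6 (1.04) and Hoxa3 (3.71). Immediate-early genes with negative values were Ier5 (-1.26), Plk2 (-1.09), Csrnp1 (-1.04), Ier2 (-0.99), Klf6 (-0.91), Klf10 (-0.80) and Rnd3 (-0.76). Feedback genes of ERK signalling were Dusp1 (-1.48), Spry4 (-1.17) and Dusp6 (-0.96), and secreted ligands were Edn1 (-1.77) and Ccn1 (-1.21). Growth and decay regulators were Btg2 (-1.37), Btg1 (-0.67), Myc (-1.15), Ccni (-1.003) and Sertad1 (-0.90). Other transcriptional regulators were Id1 (-1.32), Nr1d1 (-1.14), Irf2bp2 (-1.04), Atf4 (-0.95), Cited2 (-0.76) and Zfp747 (-0.70). Kbtbd2 (-0.64) and the predicted gene Gm20056 (-3.11, at most 20 counts in a library) complete the set.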

How the results depend on the processing

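All 28 differences kept their sign in every alternative that tested them, and 15 kept their call in all (Egr1, Edn1, Dusp1, Btg2, Id1, Ier5, Spry4, Myc, Plk2, Ccni, Ier2, Dusp6, Atf4, Klf6 and Rnd3). Kbtbd2 held in 6 of 21, Zfp747 in 8 and Sertad1 and Klf10 in 9 each, and Gm20056 in 6 of 19. The total of 28 became 259 with voom, 44 with no filter, 42 with DESeq2 and 15 with the 12 libraries alone, and lay between 22 and 37 with 1 library left out. Those more positive in CGR8 (3) became 89, 15, 5 and 1 in that order of settings, and those expressed in both lines (26) became 176, 42, 41 and 15. Calls at 1 h in NIH/3T3 (77) became 1760 with voom, 186 with DESeq2, 129 with no filter and 135 without both libraries that stood apart, and ranged from 46 to 119 with 1 left out. Those in CGR8 (104) became 1205, 191, 275 and 68, and 62 with the 12 libraries alone, and ranged from 38 to 146. Fewer residual degrees of freedom follow from fitting 12 libraries, and the cause of the other shifts was not tested. With voom, Fos (-1.40, adjusted p = 0.0316) and Junb (-0.62, adjusted p = 0.0197) were called too. With a replicate block 25 differences were called, all among the 28. Those of Sertad1 (adjusted p = 0.0682), Zfp747 (0.0542) and Gm20056 (0.0542) were lost, as were the NIH/3T3 rise of Btg1 (0.0659) and the CGR8 fall of Zfp747 (0.0690). Same-lettered libraries correlated at 0.13 to 0.31 in NIH/3T3 and at -0.02 to 0.17 in CGR8. The labels tie no letter to a shared batch or day, and since the lowest of the 6 pairs was under 0.1 the letters were not taken as pairs. Depth limits genes near or under 1 CPM, a level of only 19.96 to 31.8 counts in a library.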
